A study of Mus musculus with 10 samples.

Results

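A group of genes of mitochondrial cell death were followed in mouse ovaries. They comprised the survival genes Bcl2, Bcl2l1 and Mcl1, the pore-forming effectors Bax and Bak1, the BH3-only genes Bcl2l11, Bbc3 and Pmaip1, and the initiator caspase Casp9. They were chosen by gene symbol and make up 9 of the 55487 genes in the table, and all 9 were among the 18956 genes that passed the filter on low counts. RNA was sequenced from 10 whole ovaries of female C57BL/6J mice. The Control group held 4 ovaries of mice aged 8 weeks, the Aged group 3 ovaries of mice aged 11 months, and the Aged+CF group 3 ovaries of mice aged 11 months that had received 200 μL of CEFFE at 3 μg/μL of protein. CEFFE, a cell-free fat extract, is the liquid left after adipose tissue is emulsified, spun and sterilized. It was given repeatedly through the tail vein, and the Control and Aged mice received saline instead. The labels give the age of 11 months, while the study's methods state a slightly younger age for the same groups. Every mouse, the Control mice included, had also received 10 IU of PMSG, a gonadotropin that drives follicle growth, 48 h before collection, so that no group shows an unstimulated ovary. The ovaries are named by their labelled number. The labels do not say that they came from separate mice, so the p-values measure the spread between these ovaries.

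Proteins of the BCL2 family decide whether the outer mitochondrial membrane stays closed. BCL2, BCL-XL (from Bcl2l1) and MCL1 hold BAX and BAK inactive, and BH3-only proteins such as BIM (from Bcl2l11), PUMA (from Bbc3) and NOXA (from Pmaip1) bind the survival proteins and release the effectors. Cytochrome c that leaves through the pores joins APAF1 in the apoptosome, where caspase 9 is activated. In the ovary this pathway is known for follicle atresia, the loss of follicles through death of granulosa cells or oocytes. The proteins are controlled largely after translation, by binding, phosphorylation and turnover, and Bcl2l1, Mcl1 and Bcl2l11 make splice forms of opposite or unequal potency that counts per gene do not separate.

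Promoter sequence is shown for 3 members. Bcl2l11 and Bbc3 are known targets of FOXO transcription factors. Foxo1 was among the pathway genes that changed between groups and Foxo3 was not, while Bcl2l1 was the member with the smallest p-value in any comparison. The 250 bases before each RefSeq start site (GRCm38.p6) were searched on both strands for the FOXO core GTAAACA, for the STAT motif TTCNNNGAA and for the full p53 site. Windows were found for 8 members, 13 windows in all, and 2 of these held the FOXO core, against 3.17% of the 32851 windows of all genes. The sequences are written 5′ to 3′ on the strand of the gene, with the FOXO core, where there is one, in capitals.
Bcl2l11, chr2:128125788-128126037, plus strand: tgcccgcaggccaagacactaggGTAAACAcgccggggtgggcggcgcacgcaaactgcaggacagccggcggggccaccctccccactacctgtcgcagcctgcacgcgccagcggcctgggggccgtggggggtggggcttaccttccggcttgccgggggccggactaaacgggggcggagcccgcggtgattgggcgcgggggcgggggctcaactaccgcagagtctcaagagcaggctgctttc
Bbc3, chr7:16310011-16310260, plus strand: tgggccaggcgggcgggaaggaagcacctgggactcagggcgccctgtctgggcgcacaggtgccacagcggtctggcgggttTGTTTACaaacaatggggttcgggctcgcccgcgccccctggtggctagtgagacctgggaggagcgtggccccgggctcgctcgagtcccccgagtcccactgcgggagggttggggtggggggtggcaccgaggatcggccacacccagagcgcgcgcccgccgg
Bcl2l1, chr2:152831729-152831978, minus strand: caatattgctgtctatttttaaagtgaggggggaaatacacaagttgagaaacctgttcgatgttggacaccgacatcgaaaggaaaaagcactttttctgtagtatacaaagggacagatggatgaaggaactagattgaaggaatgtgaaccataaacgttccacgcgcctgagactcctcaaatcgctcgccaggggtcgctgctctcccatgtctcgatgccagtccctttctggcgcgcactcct

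In Bcl2l11 the core began at position -227 from the start site and was read on the strand of the gene. In Bbc3 it began at -167 and was read on the opposite strand, so that it appears as its reverse complement. The Bbc3 window lies inside the gene, before a RefSeq start downstream of the gene's first annotated base, and overlapped no exon of the GENCODE annotation. The STAT motif stood in 7.02% of all windows and the full p53 site in 0.0639%, and neither stood in a window of a member. A match is a run of letters and was not tested as a binding site.

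Some ovaries differed from the rest of their group in the cells they held, or in how much RNA those cells gave, which whole-tissue counts cannot tell apart. The libraries held 15761789 to 21318254 counts. Aged replicate 34 had the least RNA of oocyte genes, with a summed level of 12 markers of 12.5 CPM (counts per 1000000 of library size, scaled by the TMM method) against 103 and 97.6 CPM in the other Aged ovaries, and the most RNA of leukocyte genes, at 1867 CPM against 681 and 723 CPM. Genes of oviduct epithelium summed to 303 CPM in Aged replicate 34 and to 393 CPM in Control replicate 33, and to between 4.94 and 34.5 CPM in the other ovaries. Aged replicate 33 stood apart in the opposite direction for stroma, at 1860 CPM against 3337 to 5547 CPM elsewhere. Oocyte markers were lower in Aged than in Control ovaries for 12 of 12 genes, 10 of which passed the test at adjusted p, and 2 of the 12 were at 3 counts or fewer in Aged replicate 34.

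Per gene length, the members kept much the same order of level in all groups. The values are the deposited FPKM, which divide each count by gene length and library total. Mcl1, a short-lived survival protein's gene, was the highest, at 57.3 ± 3.76 FPKM in the 4 Control ovaries (mean ± SD), 59.1 ± 5.39 FPKM in the 3 Aged ovaries and 58.4 ± 1.94 FPKM in the 3 Aged+CF ovaries. Bax followed, with 22.7 ± 1.48, 20.6 ± 2.03 and 19.7 ± 1.32 FPKM in the same groups, and then its relative Bak1, with 9.81 ± 0.595, 9.11 ± 0.857 and 10.1 ± 0.304 FPKM. Each of these genes, and Casp9 after them, lay above the next in 10 of 10 ovaries.

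Bcl2l1 and Bbc3 were not separated, since Bcl2l1 was the higher of the pair in 4 of 10 ovaries. Their medians over the ovaries were 2.89 and 3.03 FPKM. Bcl2 lay below Bbc3 in 10 of 10 ovaries, with a median of 2.31 FPKM, and above Bcl2l11 in 9 of 10, whose median was 1.69 FPKM. Pmaip1 was the lowest, ranging from 0.187 to 0.982 FPKM. It was also the member with the fewest reads, from 20 to 109 counts an ovary.

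**Figure D1:**
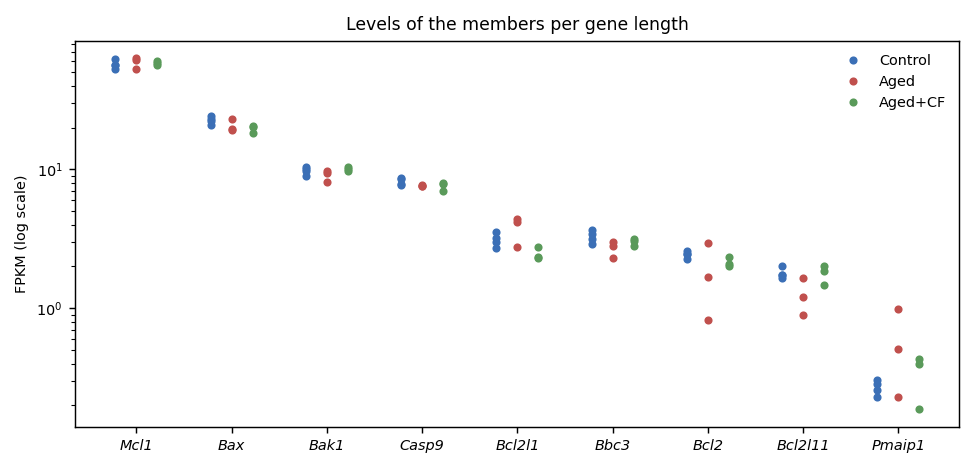
Deposited FPKM of the 9 members on a log axis, with a point for each ovary, coloured by group, and the genes ordered by their mean over the 10 ovaries. Mcl1 lies at the top, at 52.99 to 63.2 FPKM, and Pmaip1 at the bottom, and the Aged points are the most scattered for Bcl2, Bcl2l1 and Pmaip1.

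No member was called in any of the 3 comparisons when a fold change of at least 1.5 and an adjusted p under 0.05 were both required (edgeR quasi-likelihood test, Benjamini-Hochberg adjustment over all genes tested). Of all genes tested, 11.1% were called in Aged against Control, 0.00528% in Aged+CF against Aged and 0.179% in Aged+CF against Control. At adjusted p with any fold, 0 of 9 members passed in Aged against Control, where 15.4% of all genes did. With the p-value left unadjusted and the same fold, Pmaip1 passed in Aged against Control, Bcl2l1 in Aged+CF against Aged and none in Aged+CF against Control, against 18.2%, 7.96% and 7.69% of all genes. Unadjusted p with no limit on fold was under 0.05 for 3, 2 and 0 of the 9 members, against 31.6%, 16.3% and 14.3% of all genes. DESeq2 called 1, 1 and 0 members at adjusted p, the same genes, Pmaip1 and Bcl2l1.

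Few members had groups whose ovaries did not overlap. In Aged against Control there were 0 of 9 such members, against 27.5% of all genes, and in Aged+CF against Control 0 of 9, against 21.9%. In Aged+CF against Aged 2 of 9 members did not overlap in TMM-scaled CPM, Bcl2l1 and Mcl1, against 18.6% of all genes. Both overlapped in deposited FPKM. Bcl2l1 was at 2.746 FPKM in Aged replicate 34 and 2.758 FPKM in Aged+CF replicate 30. Mcl1 reached from 52.99 to 63.2 FPKM in Aged and from 56.7 to 60.5 FPKM in Aged+CF ovaries. The TMM factor of Aged replicate 33 was 0.871, the lowest of the series. The members had a median log2 fold change of 0.03, -0.10 and -0.06 in the 3 comparisons, beside -0.001, -0.02 and -0.03 over all genes tested.

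**Figure D2:**
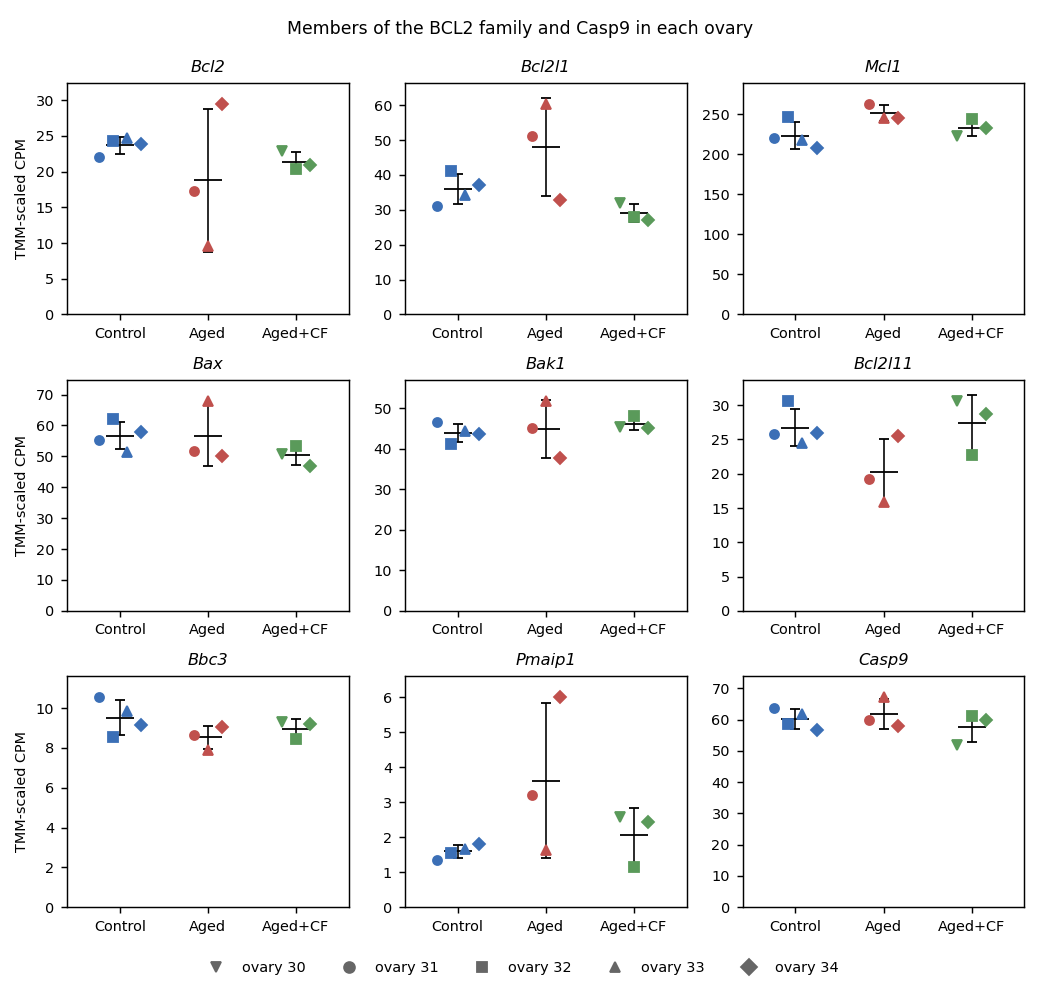
TMM-scaled CPM of each member in every ovary, with marker shape giving the labelled ovary number, horizontal bars the group mean and error bars the SD (Control n = 4, Aged n = 3, Aged+CF n = 3). Numbers do not link ovaries across groups. The Aged ovaries spread the widest for Bcl2, from 9.52 to 29.4 CPM, and for Pmaip1, from 1.62 to 6.01 CPM, while Mcl1, Bbc3 and Casp9 are compact in all groups.

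Among the survival genes, Bcl2l1 moved the most. Its product BCL-XL guards mitochondria in many cell types, and the gene lies on chromosome 2 at 152780668 to 152831728 on the minus strand (GRCm38, GENCODE M21), with the promoter printed above. Bcl2l1 stood at 31.2, 41.2, 34.2 and 37.1 CPM in Control replicates 31 to 34, at 51.2, 60.3 and 32.7 CPM in Aged replicates 31, 33 and 34, and at 32.05, 27.9 and 27.2 CPM in Aged+CF replicates 30, 32 and 34. A pair of Aged ovaries lay above all others, and Aged replicate 34 lay among the Control values and just above the highest Aged+CF ovary.

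The log2 fold change of Bcl2l1 in Aged+CF against Aged was -0.73 (SE 0.20, 95% confidence interval -1.18 to -0.27), a level lower by a factor of 1.65, with an unadjusted p of 0.00505 and an edgeR adjusted p of 0.176. In Aged against Control it was 0.42 (SE 0.19), with an edgeR adjusted p of 0.158, and in Aged+CF against Control -0.31 (SE 0.19), with an edgeR adjusted p of 0.489. The comparisons share the Aged or the Control ovaries and are not independent of each other.

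Aged replicate 34 decided whether Bcl2l1 passed the edgeR test. Without that ovary, Bcl2l1 was higher in Aged than in Control by 0.67 on the log2 scale (edgeR adjusted p = 0.00807) and the log2 change from Aged to Aged+CF was -0.96 (edgeR adjusted p = 0.0182), both past the fold of 1.5. With Control replicate 33, the other ovary with oviduct genes, also left out, the values were 0.65 (edgeR adjusted p = 0.0207) and -0.95 (edgeR adjusted p = 0.0293). DESeq2 gave -0.73 for Aged+CF against Aged with all ovaries (adjusted p = 0.0313), which passed, and 0.45 for Aged against Control (adjusted p = 0.110). Over the edgeR fits that left out any 1 ovary, the log2 change ran from 0.26 to 0.67 in Aged against Control. In Aged+CF against Aged it ran from -0.96 to -0.53, and -0.53 lies under the fold of 1.5.

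Luteal cell genes were ordered like Bcl2l1 within the Aged group and not within the other groups. All 7 luteal markers were higher in Aged than in Control ovaries at adjusted p and a fold of at least 1.5. In Aged+CF against Aged, 6 of the 7 were lower, 1 of these at unadjusted p, and 1 was higher. Their summed level was 6808 to 12220 CPM in Control, 15680 to 34330 CPM in Aged and 14270 to 21180 CPM in Aged+CF ovaries, with Aged replicate 33, the ovary with the most Bcl2l1, highest and Aged replicate 34 lowest of its group. None of the luteal markers was at 0 in any ovary. Endothelial sums, at 562, 657 and 495 CPM in Aged replicates 31, 33 and 34, had the same order, as had granulosa sums, at 4324, 4572 and 3376 CPM. All 6 endothelial markers were higher in Aged than in Control, 5 at adjusted p and a fold of at least 1.5. All 6 were lower in Aged+CF than in Aged, 4 of them at an unadjusted edgeR p under 0.05. The part of these cell types in the Bcl2l1 values was not tested.

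Bcl2, the founding survival gene of the family, lay within a narrow range in Control and Aged+CF ovaries and was scattered in Aged ovaries. It stood at 22.002, 24.3, 24.6 and 23.9 CPM in Control replicates 31 to 34, at 17.3, 9.52 and 29.4 CPM in Aged replicates 31, 33 and 34, and at 22.9, 20.3 and 20.95 CPM in the Aged+CF ovaries. The Aged group thus held both the lowest and the highest value of the series, and its coefficient of variation was 53.5%, against 4.98% in Control and 6.20% in Aged+CF.

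The fitted log2 difference of Bcl2 was -0.33 in Aged against Control (SE 0.29, edgeR adjusted p = 0.470) and 0.19 in Aged+CF against Aged (SE 0.31, edgeR adjusted p = 0.795). Without Aged replicate 34, Bcl2 was lower in Aged than in Control by a log2 change of -0.78 (edgeR adjusted p = 0.0259), and without Aged replicate 33 the difference was 0.0037 (edgeR adjusted p = 0.992). Stroma markers were ordered like Bcl2 within the Aged group, with summed levels of 3337, 1860 and 5547 CPM in replicates 31, 33 and 34, and none of the 7 was called in that comparison; their part in the Bcl2 values was not tested. The gene spans 106538178 to 106714274 on chromosome 1 and overlaps an antisense gene, D630008O14Rik, and the sources used here do not say whether counting used strand.

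Mcl1, whose protein turns over quickly and is needed by oocytes and many other cells, varied less among the Aged ovaries than the other survival genes. Its coefficient of variation there was 3.997% in TMM-scaled CPM. The deposited FPKM spread more, at 59.1 ± 5.39 in the Aged ovaries, with Aged replicate 33, at 52.99, the lowest of the 10 ovaries. The gene spans 95658788 to 95663176 on chromosome 3. Mcl1 ranged from 208 to 247 CPM in Control, from 245 to 263 CPM in Aged and from 223 to 244 CPM in Aged+CF ovaries. The Aged and Aged+CF values did not overlap, by a narrow gap between 245 and 244 CPM, while the deposited FPKM of these groups did overlap. The log2 difference was -0.11 (95% confidence interval -0.31 to 0.10, edgeR adjusted p = 0.589). In Aged against Control the log2 difference was 0.17 (-0.02 to 0.36, edgeR adjusted p = 0.207).

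The effectors Bax and Bak1, either of which can open the membrane, showed no difference that passed the test. Bax stood at 55.3, 62.0, 51.6 and 57.8 CPM in Control, at 51.6, 68.1 and 50.3 CPM in Aged and at 50.9, 53.4 and 46.9 CPM in Aged+CF ovaries. All ranges overlapped, and the group means were 56.7 ± 4.37, 56.7 ± 9.92 and 50.4 ± 3.30 CPM. Bak1 averaged 43.9 ± 2.27, 44.9 ± 7.13 and 46.2 ± 1.67 CPM in the same groups. For both genes Aged replicate 33 was the highest Aged ovary and Aged replicate 34 the lowest.

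Within an ovary, the log2 ratio of Bax to Bcl2 CPM described the same spread. It was 1.26 ± 0.13 in Control (SD, n = 4) and 1.24 ± 0.14 in Aged+CF ovaries (n = 3), while the Aged ovaries gave 1.58, 2.84 and 0.77 in replicates 31, 33 and 34. The Aged ratios thus lay on both sides of the other groups. Against Bcl2l1 in place of Bcl2, the log2 ratio of Bax was 0.66 ± 0.11 in Control and 0.80 ± 0.14 in Aged+CF ovaries, and 0.01, 0.18 and 0.62 in the Aged ovaries. These ratios are descriptions of counts not corrected for gene length, and were not tested. Bax (chromosome 7, 45461697 to 45466898) overlaps the gene Gm45808 on its own strand and Bak1 (chromosome 17, 27019810 to 27029009) overlaps Ggnbp1 on the opposite strand, so some of their reads may belong to either gene.

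Of the BH3-only genes, Bcl2l11 had the lowest values in a pair of Aged ovaries. Its product BIM is known to bind all the main survival proteins. The gene spans 128126038 to 128162547 on chromosome 2, downstream of the window with the FOXO core printed above. Bcl2l11 stood at 25.9, 30.7, 24.5 and 25.9 CPM in Control replicates 31 to 34, at 19.2, 15.9 and 25.5 CPM in Aged replicates 31, 33 and 34, and at 30.7, 22.7 and 28.8 CPM in Aged+CF replicates 30, 32 and 34. Aged replicates 31 and 33 lay below every other ovary, and Aged replicate 34 lay within both other groups.

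The log2 difference of Bcl2l11 was -0.40 in Aged against Control (SE 0.18, 95% confidence interval -0.79 to -0.01, edgeR adjusted p = 0.147) and 0.44 in Aged+CF against Aged (SE 0.19, 0.02 to 0.85, edgeR adjusted p = 0.287). Both unadjusted p-values were just under the threshold, at 0.0448 and 0.0405 by the same edgeR test, and both folds were under 1.5. Without Aged replicate 34 the differences were -0.57 (edgeR adjusted p = 0.0300), still under the fold of 1.5, and 0.63 (edgeR adjusted p = 0.0682). With Control replicate 33 left out as well, the difference between Aged and Control was -0.61 (edgeR adjusted p = 0.0422) and passed both thresholds. Over the edgeR fits that left out any 1 ovary, the difference between Aged and Control ran from -0.57 to -0.23. That between Aged+CF and Aged ran from 0.29 to 0.63.

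Granulosa cell markers lay lower in Aged ovaries for 10 of 10 genes. Of these, 5 passed at unadjusted p and 0 at adjusted p, with summed levels of 5150 to 8142 CPM in Control, 3376 to 4572 CPM in Aged and 2971 to 5116 CPM in Aged+CF ovaries and no marker at 0. Aged replicate 34, the Aged ovary with the most Bcl2l11, had the lowest granulosa sum of its group. The part of granulosa cells in the Bcl2l11 values was not tested.

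Bbc3, whose product PUMA is a known effector of p53 after DNA damage, varied little. Its range was 8.54 to 10.6 CPM in Control, 7.90 to 9.04 CPM in Aged and 8.44 to 9.29 CPM in Aged+CF ovaries, so all groups overlapped. The log2 difference was -0.16 in Aged against Control (95% confidence interval -0.45 to 0.14, edgeR adjusted p = 0.453) and 0.07 in Aged+CF against Aged (-0.24 to 0.39, unadjusted p = 0.620 by the same edgeR test). The gene spans 16308393 to 16318205 on chromosome 7. These differences were smaller than those of Bcl2l11, the other member with the FOXO core in a window printed above, and the difference between the genes was not tested.

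Pmaip1 had the smallest p-value of the members in Aged against Control. Its product NOXA is a BH3-only protein that binds MCL1. It stood at 1.34, 1.56, 1.67 and 1.80 CPM in Control replicates 31 to 34, at 3.22, 1.62 and 6.01 CPM in Aged replicates 31, 33 and 34, and at 2.58, 1.15 and 2.44 CPM in Aged+CF replicates 30, 32 and 34. A pair of Aged ovaries lay above all Control values and the third lay within them, and the Aged+CF group held the lowest value of the series.

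The log2 difference of Pmaip1 in Aged against Control was 1.18 (SE 0.42, 95% confidence interval 0.24 to 2.13, unadjusted p = 0.0190, edgeR adjusted p = 0.0857), a level higher by a factor of 2.27. In Aged+CF against Aged it was -0.82 (SE 0.45, edgeR adjusted p = 0.392). Without Aged replicate 34 the difference from Control was 0.64 (edgeR adjusted p = 0.252), and without Aged replicate 33 it was 1.55 (edgeR adjusted p = 0.0287). With DESeq2 and all ovaries it was 1.21 (adjusted p = 0.0401).

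Leukocyte markers were also highest in the ovary with the most Pmaip1. All 10 lay higher in Aged than in Control ovaries, 7 of them at adjusted p and a fold of at least 1.5. Their summed level was 315 to 389 CPM in Control, 681 to 1867 CPM in Aged, with the top value in replicate 34, and 587 to 620 CPM in Aged+CF ovaries, and no marker was at 0. Stroma, adipocyte and oviduct sums were also highest of the Aged group in replicate 34, at 5547, 92.9 and 303 CPM. The stroma sums of 3337, 1860 and 5547 CPM in Aged replicates 31, 33 and 34 followed the order of Pmaip1. The leukocyte sums of 681, 723 and 1867 CPM did not. The part of these cell types in the Pmaip1 values was not tested.

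The genes most like Pmaip1 over the 10 ovaries were Ugt1a6b, Nrros and Ndrg1. Likeness was the mean absolute difference of standardized log2 CPM, which was 0.207, 0.211 and 0.274 SD, among 13112 genes with a mean of at least 5 CPM. All 3 shared the high value in Aged replicate 34, at 21.1 CPM for Ugt1a6b, 26.0 CPM for Nrros and 84.7 CPM for Ndrg1, against 3.88, 15.03 and 48.9 CPM in Aged replicate 33. Ugt1a6b belongs to a gene cluster with shared exons, so its counts are uncertain.

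Casp9, the caspase of the apoptosome, had overlapping values in all groups. It stood at 63.6, 58.6, 61.8 and 56.6 CPM in Control, at 59.9, 67.2 and 58.1 CPM in Aged and at 52.0, 61.0 and 59.8 CPM in Aged+CF ovaries. The log2 difference was 0.04 in Aged against Control (95% confidence interval -0.17 to 0.24, edgeR adjusted p = 0.822) and -0.10 in Aged+CF against Aged (-0.32 to 0.12, edgeR adjusted p = 0.640). The gene spans 141793612 to 141815976 on chromosome 4 and overlaps Cela2a and Ctrc on the opposite strand.

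The confidence intervals separated the members by whether they reached a fold of 1.5. For 5 of 9 members, Mcl1, Bax, Bak1, Bbc3 and Casp9, the 95% intervals of all 3 comparisons lay between -0.46 and 0.39 on the log2 scale and so did not reach a fold of 1.5, whose log2 is 0.585. The intervals of Bcl2, Bcl2l1, Bcl2l11 and Pmaip1 reached beyond it in at least 1 comparison, so that a change of that size was not excluded for these genes. Some of these intervals also lay clear of 0, such as those of Bcl2l1 (-1.18 to -0.27) and Bcl2l11 (0.02 to 0.85) in Aged+CF against Aged. Reaching a fold of 1.5 thus depended on the size of the estimate as well as on the spread between ovaries. The sign of the near-zero differences depended on the scaling. Scaling to the total count, which moved the median of all genes in Aged against Control from -0.001 to -0.126, turned Bak1 to -0.11 and Casp9 to -0.0948, and DESeq2's size factors turned Bax from -0.0006 to 0.03.

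**Figure D3:**
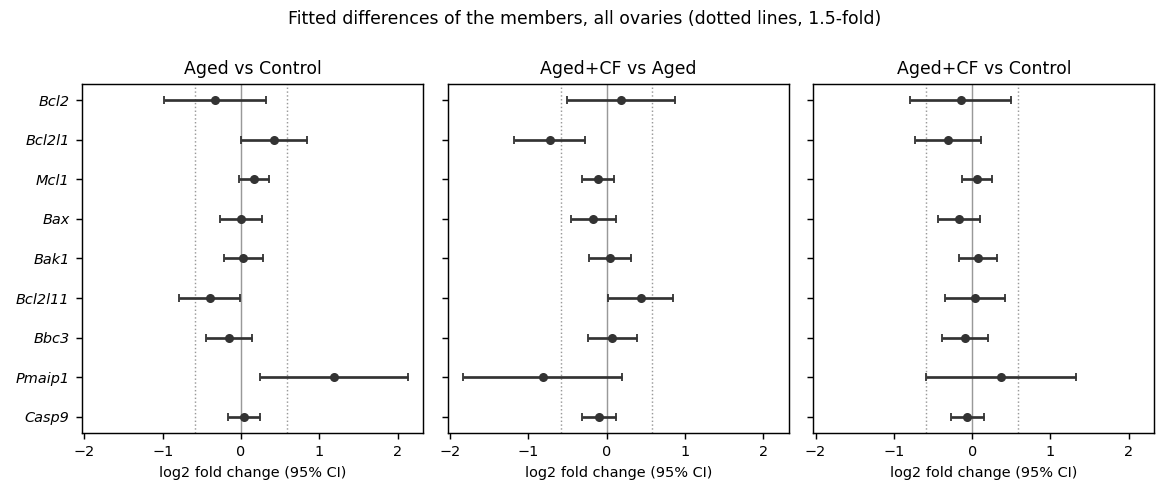
Log2 fold change of each member in the 3 comparisons, with points for the edgeR estimates and bars for their 95% confidence intervals; the dotted lines mark a fold of 1.5. Mcl1, Bax, Bak1, Bbc3 and Casp9 stay between the dotted lines, and Pmaip1 has the widest bars.

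**Figure D4:**
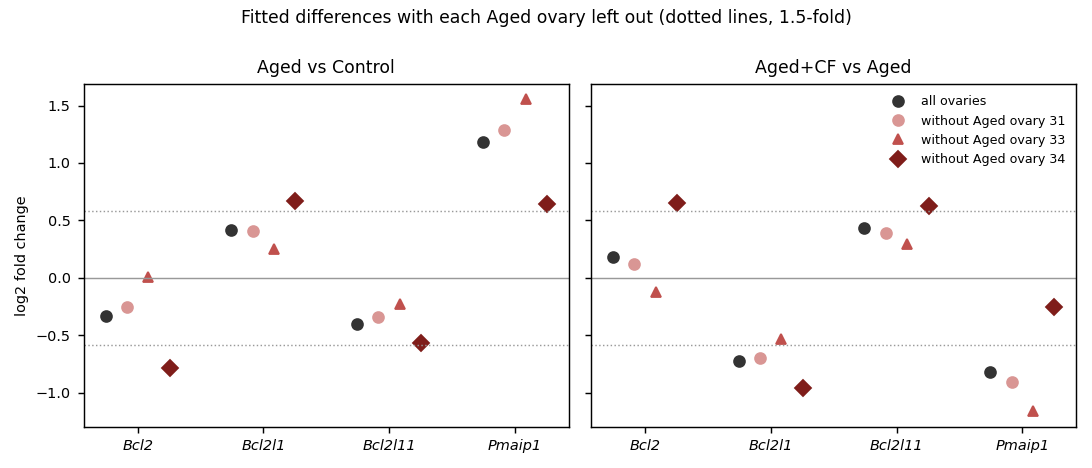
Log2 fold change of 4 members in Aged vs Control (left) and Aged+CF vs Aged (right), with all ovaries and with each Aged ovary left out in turn; the dotted lines mark a fold of 1.5. Leaving out Aged ovary 34 moved Bcl2, Bcl2l1 and Bcl2l11 away from 0 and Pmaip1 toward it, to 0.64 in Aged vs Control.

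The rest of the pathway was followed in 47 further genes, 44 of which were tested; Hrk, Bcl2l14 and Bcl2l15 did not pass the filter on low counts. In Aged against Control 2 were called higher and 2 lower at a fold of at least 1.5 and adjusted p, 9.09% of the 44 against 11.1% of all genes, and 7 higher and 5 lower at unadjusted p, 27.3% against 18.2%. In Aged+CF against Aged none was called at adjusted p by edgeR and 1 by DESeq2, and at unadjusted p 1 was higher and 3 lower, 9.09% of the 44 against 7.96% of all genes, with 9 of 44 under an unadjusted p of 0.05 at any fold, 20.5% against 16.3%. In Aged+CF against Control none was called at adjusted p by edgeR, and 4 were higher at unadjusted p, 9.09% against 7.69% of all genes. The median log2 fold change over the 44 genes was 0.07, -0.05 and -0.08 in the 3 comparisons.

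Among survival genes outside the members, the A1 genes Bcl2a1a and Bcl2a1d, known from leukocytes, rose in Aged ovaries. Bcl2a1a was at 0.152 to 0.584 CPM in Control and at 1.19, 1.06 and 2.81 CPM in Aged ovaries, with a log2 fold change of 2.42 (SE 0.54, edgeR adjusted p = 0.0186). Bcl2a1d was at 0.963 to 1.59 CPM in Control and at 2.15, 3.03 and 5.79 CPM in Aged ovaries, with a log2 fold change of 1.49 (SE 0.36, edgeR adjusted p = 0.0239). For both genes the Aged and Control values did not overlap, both were highest in Aged replicate 34, where leukocyte markers were also highest, and both passed without that ovary (edgeR adjusted p = 0.0346 and 0.0399). With Control replicate 33 also left out neither passed, at log2 fold changes of 1.63 and 0.90 (edgeR adjusted p = 0.0689 and 0.0772). The third A1 copy of the list, Bcl2a1b, had the most counts of these genes and did not pass, at 3.43 ± 0.881 CPM in Control and 6.41 ± 3.46 CPM in Aged ovaries, with overlapping values (log2 fold change 0.90, edgeR adjusted p = 0.0943). The A1 genes are near-identical copies, and Bcl2a1a rested on 3 to 51 counts, so the split of reads between them is uncertain.

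The other survival genes of the list ran in opposite directions at unadjusted p. Bcl2l10, an oocyte gene, did not pass at adjusted p, at 24.5 ± 6.97 CPM in Control and 5.57 ± 5.34 CPM in Aged ovaries (log2 fold change -2.15, edgeR adjusted p = 0.0635), and was at 9.75 ± 3.34 CPM in Aged+CF ovaries. It was lowest, at 0.496 CPM, in Aged replicate 34, which also had the least oocyte RNA. Bcl2l2, which encodes BCL-W, was at 54.9 ± 16.2 CPM in Control, 102 ± 17.3 CPM in Aged and 65.4 ± 28.0 CPM in Aged+CF ovaries, and its log2 fold change of 0.89 in Aged against Control had an edgeR adjusted p of 0.0577. Both genes were picked for mention after their values were seen.

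Foxo1, a transcription factor abundant in granulosa cells and a known driver of Bcl2l11 and Bbc3, fell in Aged ovaries. It stood at 671, 588, 600 and 641 CPM in Control, at 351, 274 and 186 CPM in Aged and at 485, 239 and 546 CPM in Aged+CF ovaries. All Aged values lay below all Control values, and the log2 fold change was -1.21 (SE 0.28, edgeR adjusted p = 0.0212). Without both ovaries with oviduct genes it was -0.98 and no longer passed (edgeR adjusted p = 0.0599). Nor did it pass with the ovary number added to the fit as a block (edgeR adjusted p = 0.0733). Bcl2a1a, Bcl2a1d and Birc5 did not pass in that block fit either (edgeR adjusted p = 0.0927, 0.0826 and 0.138). Foxo1 passed without Aged replicate 34 alone, at -0.96 (edgeR adjusted p = 0.0365), and with DESeq2 and all ovaries (adjusted p = 0.000473). The difference of 0.65 between Aged+CF and Aged had an edgeR adjusted p of 0.310. Foxo3, the other FOXO gene of the list, differed by -0.04 in Aged against Control (edgeR adjusted p = 0.793). Its difference between Aged+CF and Aged was 0.11 (edgeR adjusted p = 0.614). Granulosa markers were lower in Aged ovaries too, with the sums given beside Bcl2l11, and their part in the Foxo1 values was not tested. Within the Aged group Foxo1 was lowest in replicate 34, at 186 CPM, where Bcl2l11 was highest, at 25.5 CPM. A link between these genes was not tested.

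Birc5, which encodes survivin, an IAP family protein that serves chiefly in cell division, fell with age. It was at 23.9 to 33.7 CPM in Control and at 9.36, 17.1 and 3.31 CPM in Aged ovaries, with a log2 fold change of -1.55 (SE 0.44, edgeR adjusted p = 0.0414), and at 10.9 to 18.05 CPM in Aged+CF ovaries. It was lowest in Aged replicate 34, which also had the lowest oocyte sum, of 12.5 CPM, and the lowest granulosa sum of the Aged ovaries, of 3376 CPM. Both sets of markers were lower in Aged ovaries, and their part in the Birc5 values was not tested.

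Downstream of the mitochondria, Cycs and Diablo, whose products leave through the BAX and BAK pores, passed at unadjusted p in Aged+CF against Aged. Cycs stood at 26.4, 38.3 and 27.7 CPM in Aged and at 19.5, 19.3 and 20.6 CPM in Aged+CF ovaries, with no overlap and a log2 fold change of -0.64 (SE 0.15, unadjusted p = 0.00206, edgeR adjusted p = 0.161). In Aged against Control Cycs rose by 0.52 on the log2 scale (edgeR adjusted p = 0.0354), under the fold of 1.5. Diablo stood at 149, 197 and 72.2 CPM in Aged and at 80.2, 66.2 and 80.0 CPM in Aged+CF ovaries, with a log2 fold change of -0.89 (SE 0.29, unadjusted p = 0.0116, edgeR adjusted p = 0.205).

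Diablo and Cycs passed at adjusted p in the edgeR fit that left out Aged replicate 34. Without that ovary the log2 fold change of Diablo in Aged+CF against Aged was -1.21 (edgeR adjusted p = 0.0115) and that of Cycs was -0.72 (edgeR adjusted p = 0.0468). The unadjusted edgeR p of Diablo moved from 0.0116 to 1.44e-05, and that of Cycs only from 0.00206 to 0.00137. Calls over all genes in this comparison rose from 1 to 556 without that ovary. With Control replicate 33 also left out Diablo still passed (edgeR adjusted p = 0.0169) and Cycs did not (edgeR adjusted p = 0.0712). With all ovaries DESeq2 gave adjusted p = 0.00952 for Cycs and 0.0590 for Diablo. Diablo overlaps Gm49027 on its own strand, so its reads may be shared.

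Apaf1, the scaffold of the apoptosome, was higher in Aged+CF than in Aged ovaries at unadjusted p. It stood at 19.1, 21.3 and 18.7 CPM in Aged and at 28.2, 38.7 and 27.5 CPM in Aged+CF ovaries (log2 fold change 0.67, SE 0.28, unadjusted p = 0.0366, edgeR adjusted p = 0.277), and its Control values reached from 21.1 to 46.8 CPM. Bik, a BH3-only gene, was lower in Aged+CF ovaries, at 2.75, 2.70 and 2.77 CPM against 2.51, 5.57 and 5.35 CPM in Aged ovaries (log2 fold change -0.71, SE 0.31, unadjusted p = 0.0439, edgeR adjusted p = 0.294).

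**Figure D5:**
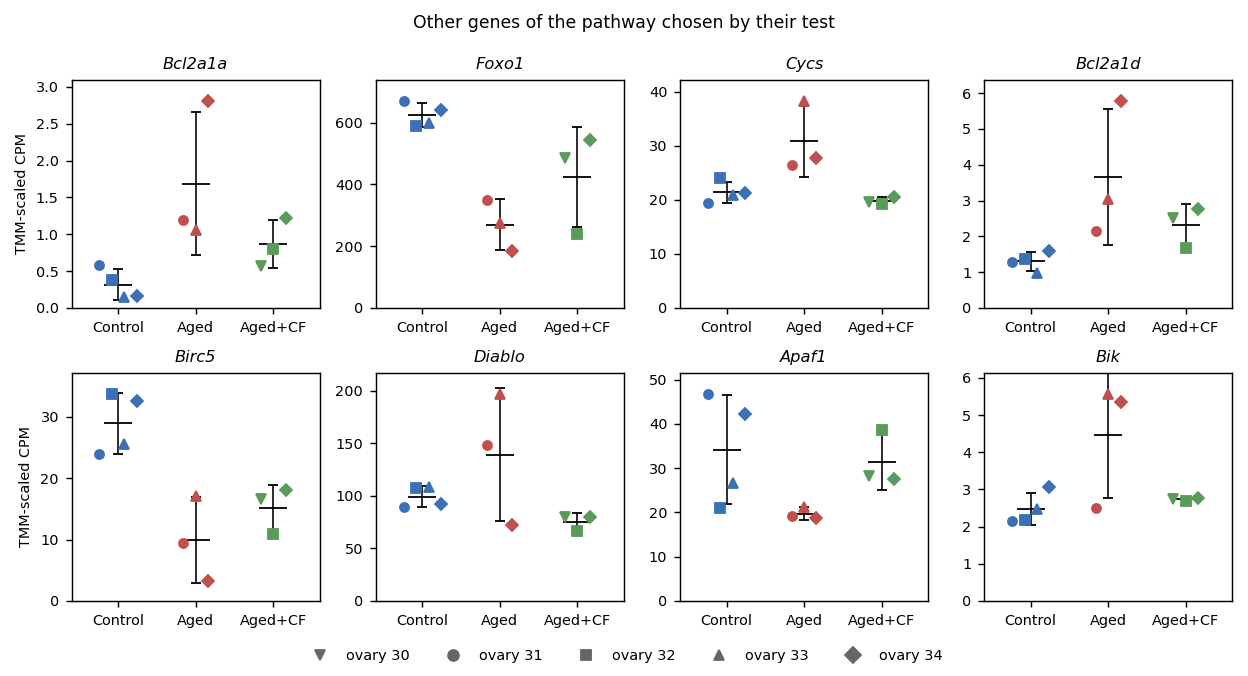
TMM-scaled CPM of the 8 pathway genes outside the members that met the rule for naming, in every ovary, with marker shape giving the ovary number, horizontal bars the group mean and error bars the SD (Control n = 4, Aged n = 3, Aged+CF n = 3). Foxo1 and Birc5 are lower and Bcl2a1a and Bcl2a1d higher in every Aged ovary than in every Control ovary.

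Other genes of the lists changed with age at adjusted p by less than a fold of 1.5, and those given here were picked for mention after their values were seen. Casp2, a caspase known for its part in oocyte loss, averaged 45.0 ± 4.16 CPM in Control and fell to 30.7 ± 6.03 CPM with age (log2 fold change -0.55, edgeR adjusted p = 0.0280). Trp53, which encodes p53, fell from 127 ± 18.1 to 90.5 ± 6.87 CPM (-0.49, edgeR adjusted p = 0.0306).

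Of the genes picked in the same way, Casp8, the initiator caspase of the death receptor route, rose from 24.6 ± 1.27 to 31.3 ± 0.171 CPM (0.35, edgeR adjusted p = 0.0294), Tnfrsf1a, a TNF receptor, from 144 ± 9.95 to 192 ± 20.4 CPM (0.41, edgeR adjusted p = 0.0206) and Cflar, an inhibitor of caspase 8, from 108 ± 4.75 to 134 ± 12.5 CPM (0.31, edgeR adjusted p = 0.0336). In the whole list of death receptors and adaptors, 2 of 8 genes, Tnfrsf1a and Cflar, rose and none fell at adjusted p and any fold, where 15.4% of all genes passed. The death receptor gene Tnfrsf10b lay the other way without passing, at 14.2 ± 1.67 CPM in Control and 9.90 ± 1.12 CPM in Aged ovaries (log2 fold change -0.52, edgeR adjusted p = 0.0545).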

How the data were processed

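RNA-seq was available for 10 ovaries (4 Control, 3 Aged, 3 Aged+CF), grouped by their labels, which name no batch. The authors deposited raw read counts and FPKM values per gene; the submitters' processing notes name TopHat, Cufflinks 2.1.1 and GRCm38.p4, and the counting tool and strand setting are not given in the sources used here. Counts (15761789 to 21318254 an ovary) were tested with the edgeR 4.0 quasi-likelihood F test in R 4.3 over all 10 ovaries (filterByExpr, TMM), two-sided, with Benjamini-Hochberg adjustment over 18956 genes. A gene was called at a fold of at least 1.5 and adjusted p under 0.05. FPKM values served for levels between genes and to recheck the overlap and spread of Bcl2l1 and Mcl1, and CPM were TMM-scaled. The fit was tested on simulated data. The members and lists were chosen with earlier results of these data known. All members were named; pathway genes were named if called in Aged vs Control or Aged+CF vs Control, or, at unadjusted p, in Aged+CF vs Aged. Alternatives were no filter, other scalings, DESeq2 1.42, the compared groups alone, a replicate block and leaving out each ovary. Leaving out both ovaries with oviduct genes was added after seeing the data. Positions are from GENCODE M21 (GRCm38) and promoters from RefSeq (GRCm38.p6). Some results of the lists are not reported here.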

Additional observations from a re-analysis of the deposited data

Results flagged for a closer look

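The 9 members and the 8 named pathway genes were searched for a Control ovary standing apart from the other 3 by Dixon's criterion, and 0 of these 17 genes had such an ovary, where chance gives about 1 in 20. The groups of 3 were not searched.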

How the results depend on the processing

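Precision was limited by 3 or 4 ovaries a group and by Aged replicate 34. The members called at adjusted p in Aged vs Control numbered 0 with all ovaries, 0 to 2 with an ovary left out (1 without Aged replicate 33, 2 without Aged replicate 34), 2 without both ovaries with oviduct genes and 1 with DESeq2; in Aged+CF vs Aged they numbered 0, 0 to 1 with an ovary left out (1 without Aged replicate 34), 1 without both oviduct ovaries and 1 with DESeq2. At unadjusted p, the 1 member of Aged vs Control became 1 to 2 with an ovary left out and 3 without both oviduct ovaries, and the 1 of Aged+CF vs Aged became 1 to 3 and 3. No alternative called a member at adjusted p in Aged+CF vs Control.

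Pathway genes called at adjusted p in Aged vs Control numbered 4, and 11 with scaling to the total count, 11 with DESeq2 and 1 to 9 with an ovary left out (1 without Control replicate 34, 9 without Aged replicate 31 or 34). In Aged+CF vs Aged they numbered 0, and 0 to 2 with an ovary left out, 1 without both oviduct ovaries and 1 with DESeq2, and in Aged+CF vs Control 0, and 2 with only the compared groups. Over all genes, the 2096 calls of Aged vs Control ranged from 1081 (without Control replicate 32) to 3112 (without Aged replicate 34) with an ovary left out. The 1 call of Aged+CF vs Aged became 1 to 556 with an ovary left out, the highest without Aged replicate 34, 289 without both oviduct ovaries, 442 with DESeq2, and 2 with no filter, with scaling to the total count or with only the compared groups. The 34 calls of Aged+CF vs Control became 7 to 348, the highest again without Aged replicate 34, and 159 without both oviduct ovaries, 487 with only the compared groups and 528 with DESeq2. Of the 2096 calls of Aged vs Control, 948 were higher and 1148 lower, and with scaling to the total count 650 of 2281 were higher and 1631 lower. The causes of these differences were not tested.

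Ovaries that share a number did not deviate together, with correlations from -0.185 to 0.153, so the numbers do not pair them. With the number as a replicate block, members called at unadjusted p in Aged vs Control numbered 0, pathway genes called at adjusted p 0, and calls over all genes 80, 0 and 9 in the 3 comparisons. The block turned Bax to 0.0309 and Bak1 to -0.0048 in Aged vs Control, Bcl2 to -0.0303 and Casp9 to 0.043 in Aged+CF vs Aged, and Bcl2l11 to -0.21, Pmaip1 to -0.18 and Casp9 to 0.0668 in Aged+CF vs Control.

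The remaining changes of sign concerned differences near 0. In Aged vs Control, Bax was -0.0006 with all ovaries and 0.0024 with no filter, 0.0288 with DESeq2's size factors, 0.028 with the DESeq2 test, 0.0753 without both oviduct ovaries and -0.12 to 0.12 with an ovary left out; scaling to the total count gave -0.11 for Bak1 and -0.0948 for Casp9. With an ovary left out, Bak1 ranged from -0.0586 to 0.18 and Bcl2 from -0.78 to 0.0037 in Aged vs Control, Bcl2 from -0.12 to 0.65 and Bak1 from -0.0842 to 0.16 in Aged+CF vs Aged, and Bcl2l11 from -0.0299 to 0.15 and Casp9 from -0.10 to 0.0296 in Aged+CF vs Control. Bak1 in Aged+CF vs Aged was -0.0836 without both oviduct ovaries. Of 459 log2 fold changes of members under the alternatives, 422 kept their direction and side of the thresholds, 9 passed newly and 28 changed sign. Bcl2l1 kept its direction in every fit of every comparison.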
